A study of Callithrix jacchus with 39 samples.

Results

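The genes described here encode subunits of the mitochondrial respiratory chain and of ATP synthase, together with assembly factors of complex I. They were taken by gene symbol: NDUFA, NDUFB, NDUFC, NDUFS and NDUFV genes, UQCR genes, CYC1, nuclear COX4 to COX8 genes and ATP5 genes. Of 30811 gene IDs in the count table, 44 met this rule, with 23 subunits of complex I, 6 assembly factors of complex I, 4 subunits of complex III, 4 of complex IV and 7 of ATP synthase. Only 12660 IDs (41.1%) could be given a symbol, so other subunits may be counted under IDs that have none, and they were not analysed here.

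The measurements were poly(A)+ RNA-seq gene counts of the common marmoset, Callithrix jacchus, in 39 libraries that form 13 groups of 3. Of the 6 groups of embryonic stem cells (ESCs), 4 were labelled primed, a state in culture that resembles the epiblast after implantation: DSY127, No.40, DSY-c2 P Tg and N40 P Tg. The other 2 were labelled naive, a state that resembles the blastocyst: DSY-c2 N TgON and N40 N TgOFF. Tg, TgON and TgOFF are not defined in the labels, and TgON and TgOFF cannot be told apart from the cell line. Embryos gave 7 groups. They comprised the morula, 5 stages of the inner cell mass (ICM), named early blastocyst, blastocyst, expanded, hatching and hatched, and the postimplantation epiblast. No strain, age, growth condition or number of pooled embryos is given. The labels do not state if the 3 libraries of a group had separate cultures or embryos as their source. The p-values therefore reflect only how these libraries varied, and that variation may be technical.

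Electrons from NADH enter the chain at complex I and those from succinate at complex II. Both pass through quinone to complex III, then through cytochrome c to complex IV, where oxygen is reduced. Complexes I, III and IV pump protons across the inner membrane, and ATP synthase lets them flow back to make ATP. The members are nuclear genes whose proteins are imported and joined with subunits made from the mitochondrial genome. In mammals, naive pluripotent cells and blastocysts are known for respiring more than primed cells, which rely more on glycolysis.

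Total counts per library ran from 38.8 M to 78.7 M in ESCs and from 45.3 M to 59.0 M in embryos. The 44 genes held 0.47% to 0.87% of the counts of an ESC library and 0.31% to 1.16% of those of an embryo library. All 44 passed the low-count filter in both sources. A count of 0 allowed up to 0.0737 CPM (counts scaled to library size) in ESCs and 0.0681 CPM in embryos, taken as 3 counts, and this floor covers counting error only. Several of these genes have processed pseudogene copies that can share reads with them, which makes their counts uncertain. Pluripotency genes (5 of 6 matched: LIN28A, NANOG, POU5F1, SALL4, SOX2) had counts in every ESC group and in the epiblast, with summed levels of 1785 to 3242 CPM in ESCs. A library of the hatched ICM stood apart from its 2 partners, with pluripotency genes summing to 601.6 CPM against 2342 and 2402 CPM.

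Over the 13 groups, the 44 genes were lowest together in the epiblast, intermediate in primed ESCs and morula, and highest in the ICM and naive ESCs. On a scale common to all 39 libraries, their summed level was 3202 ± 20.5 CPM in the epiblast (SD, n = 3 in this and the other groups). Primed cells summed to 4243 ± 52.1 CPM in DSY127, 4243 ± 185 CPM in No.40, 4728 ± 170 CPM in DSY-c2 and 5305 ± 164 CPM in N40. The morula had 5925 ± 567 CPM. Naive cells had 6904 ± 180 CPM in N40 and 7688 ± 472 CPM in DSY-c2. The 5 ICM stages, which overlapped DSY-c2 naive cells, had means between 8960 ± 1643 CPM in the hatched and 10390 ± 743 CPM in the hatching blastocyst. DSY127 and No.40 did not differ beyond their spread, and neither did the 5 ICM stages among themselves. The sum gives most weight to abundant genes such as ATP5A1, and the comparison of ESCs with embryos is a description without a test.

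With each gene centred on its mean over the 13 groups, all genes counted alike. Complex I then averaged -1.87 ± 0.09 log2 units in the epiblast, between -0.29 and 0.09 in the 4 primed groups, 0.24 to 0.37 in the ICM stages, and 0.59 ± 0.13 and 0.57 ± 0.03 in DSY-c2 and N40 naive cells. Complex III had another order, with 0.59 to 0.84 in the ICM, 0.47 ± 0.11 in DSY-c2 naive cells and 0.08 ± 0.05 in N40 naive cells, against -0.75 to -0.48 in primed cells. ATP synthase went from -0.42 ± 0.10 in the morula to between 0.40 and 0.62 in the ICM. The 6 complex I assembly factors averaged 0.70 ± 0.45 in the morula and 0.20 to 0.43 in the ICM, but the morula libraries (0.19 to 1.07) overlapped those of the ICM. NDUFAF5 was at -0.46 in the morula against -0.37 to 0.71 in the ICM. Among the 4 complex IV genes, COX4I1 and COX5B averaged -2.21 ± 0.12 in the epiblast, -0.80 ± 0.33 in the morula, and 0.99 ± 0.10 and 0.66 ± 0.05 in DSY-c2 and N40 naive cells. For each of these sets (complex IV as COX4I1 and COX5B), the 3 epiblast libraries were below all other libraries.

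**Figure D1:**
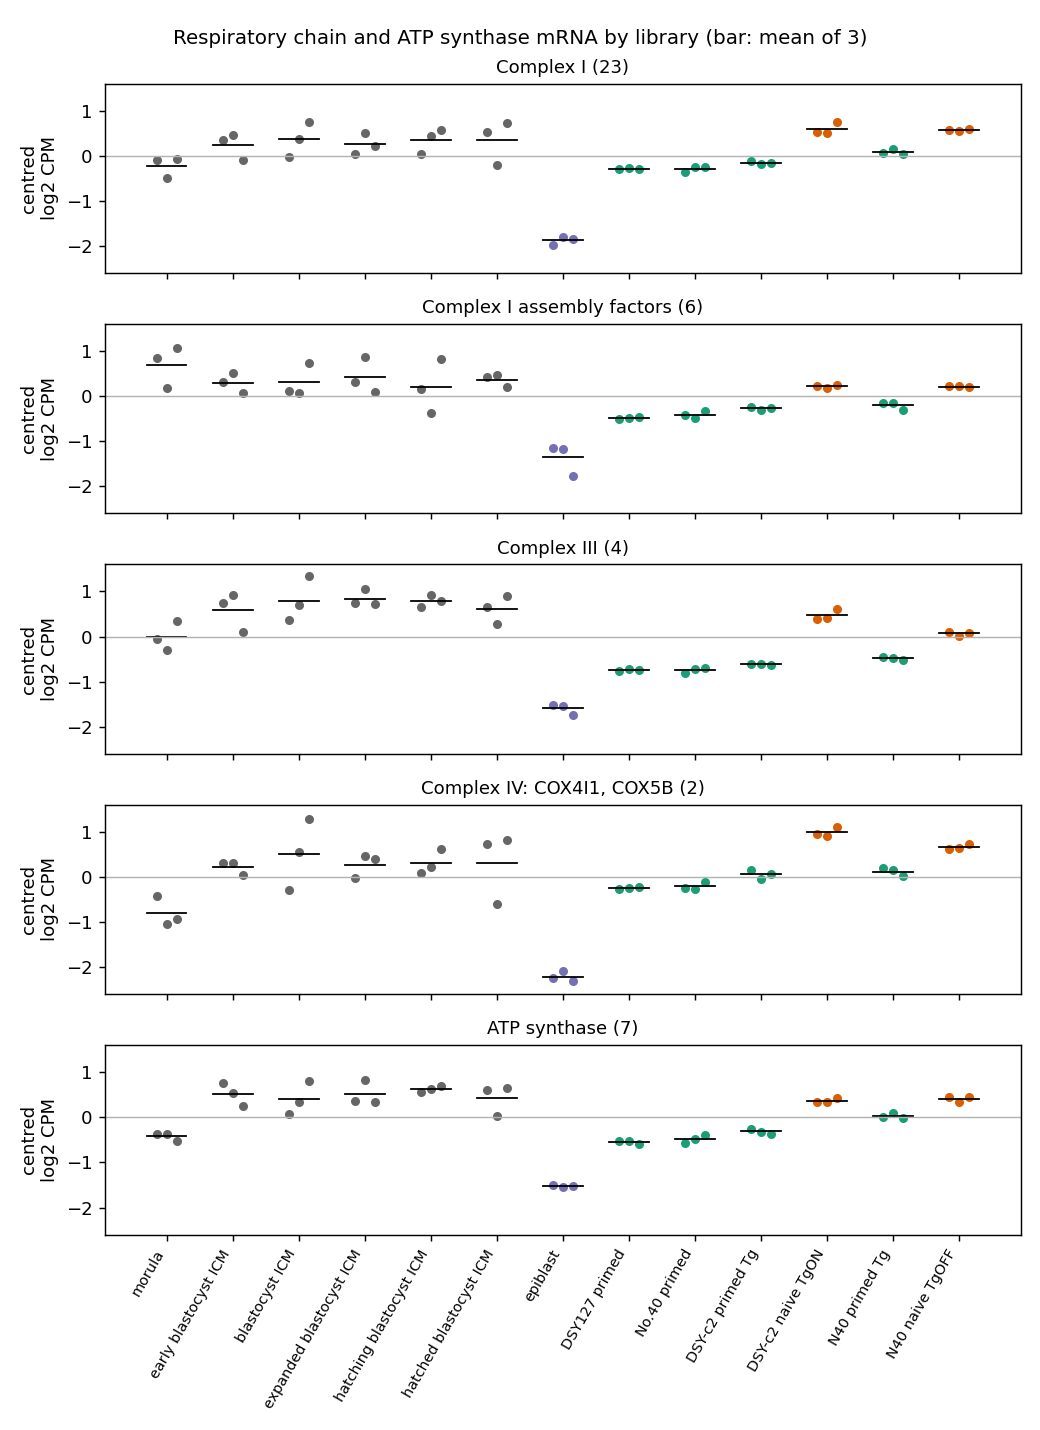
Centred log2 CPM of each complex in each of 39 libraries (y axis, log2 units from each gene's mean over 13 groups; complex IV is COX4I1 and COX5B only), by group on the x axis, with bars for means of 3 libraries and colours for morula and ICM (grey), epiblast (purple), primed (green) and naive ESCs (orange). Epiblast libraries lie lowest in all panels as drawn, and naive libraries lie above the primed libraries of the same line; the muscle isoforms COX6A2 and COX7A1 are not drawn.

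Single genes ranged far more than the sums. NDUFS1, the largest iron-sulfur subunit of complex I, had group means spanning 0.78 log2 units, the smallest range of the 44. COX7A1, NDUFB1 and ATP5F1D had the widest, at 7.77, 6.25 and 6.14. The genes also divided by source. All 6 naive ESC libraries lay above all 15 ICM libraries for 8 genes: NDUFS4, NDUFB1, NDUFB2, NDUFB3 and NDUFB4 of complex I, COX7A1, and ATP5H and ATP5PF of the ATP synthase stalk. They lay below all ICM libraries for 5: UQCRC1 and CYC1 of complex III, and ATP5A1, ATP5F1C and ATP5F1D, the alpha, gamma and delta subunits of the F1 part of ATP synthase. Over 16136 genes tested in both sources, 11.6% lay above in this way and 6.9% below, so the share above (8 of 44) and the share below (5 of 44) are given as descriptions. The other 31 members overlapped. These genes were singled out after their values were seen.

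**Figure D2:**
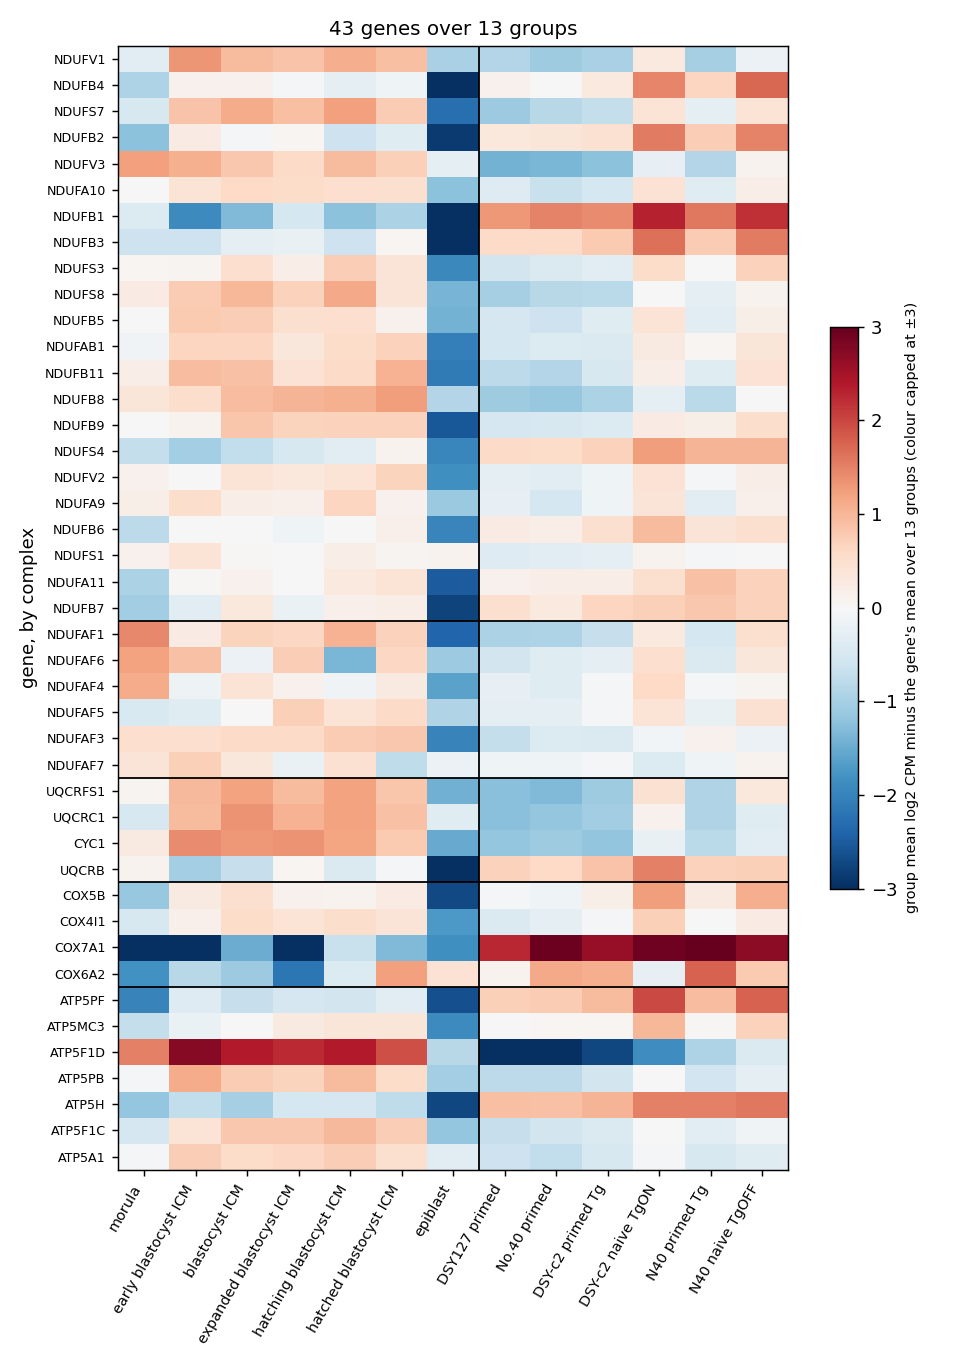
Group mean log2 CPM of 43 of the 44 genes (rows, grouped by complex) minus the gene's own mean, over 13 groups (columns; 7 embryo stages left of the black line, 6 ESC groups right), with colour capped at 3 log2 units. The epiblast column is the lowest for most genes, while COX7A1, NDUFB1, ATP5PF and ATP5H are higher in ESCs and ATP5F1D is higher in the embryo before implantation.

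The first question was how naive cells differ from primed cells of the same line. CPM values from here on use the scaling of the fit they belong to, ESC or embryo. The common scale minus this scale is a constant per library, between -0.20 and -0.03 log2 units in ESCs and between 0.09 and 0.16 in embryos. In DSY-c2, 41 of the 44 genes were higher in naive cells, 1 was lower and 2 were not called, by edgeR's quasi-likelihood test with Benjamini-Hochberg adjusted p under 0.05. Of all 17957 genes tested, 29.6% were called higher and 29.3% lower. The median change of the 44 was 0.80 log2 units, against 0.03 over all genes, and 14 were at least 2-fold higher. Without scaling, the median of all genes moved to -0.126 and that of the 44 to 0.64. In N40, 37 were higher, 0 were lower and 7 were not called by edgeR, and 38 passed an unadjusted p under 0.05 in either direction, as did 64.7% of all genes. Background calls in N40 were 32.3% higher and 28.7% lower. The N40 median was 0.61, against 0.09 over all genes, and 4 genes were at least 2-fold higher. No setting gave a higher N40 count: 30 to 34 genes were called higher with any 1 library left out and 33 with DESeq2, which also called 2 lower. DESeq2 called 30.4% of all genes higher and 32.1% lower. A total of 36 genes were called higher in both lines, against 22.9% of all genes. In bulk RNA, fewer cells of a type and less RNA per cell cannot be told apart.

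By library, the 3 naive DSY-c2 libraries lay above the 3 primed ones for 41 genes, where 34% of all genes did so, and below for NDUFAF7 and COX6A2, where 32.2% of all genes did. In N40 the naive libraries lay above for 37 genes, with 35.1% over all genes, and below for COX6A2 and COX7A1, with 30.3%. When all 6 naive libraries were set against all 12 primed libraries, 32 of the 44 genes lay wholly above, against 16.3% of all genes.

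Complex I had the most members. All 23 subunits were higher in DSY-c2, with a median of 0.81 log2 units, and 20 of 23 in N40, with a median of 0.67. The 7 core subunits, which carry the flavin and the iron-sulfur clusters, were all higher in both lines, with medians of 0.94 and 0.54. The 16 accessory subunits were all higher in DSY-c2 (median 0.80), and 13 were in N40 (median 0.69).

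NDUFV1 is the core subunit that binds NADH and the flavin. It stood at 36.9, 37.1 and 38.6 CPM in DSY-c2 primed libraries and at 89.8, 95.2 and 108.7 CPM in naive ones. In N40 it stood at 30.7, 41.3 and 36.5 CPM in primed and 76.1, 65.4 and 68.2 CPM in naive libraries. No library overlapped in either line, and the increase was 1.38 ± 0.11 log2 units in DSY-c2 (SE; edgeR adjusted p = 4.87e-08) and 0.95 ± 0.11 in N40 (edgeR adjusted p = 2.05e-06).

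NDUFB4 belongs to the distal membrane arm. In DSY-c2 its level was 97.5, 84.2 and 89.9 CPM in primed and 208.2, 196.3 and 251.7 CPM in naive libraries. In N40 it was 123.5, 111 and 97.3 CPM against 261.8, 261.5 and 250.4 CPM. The changes of 1.27 ± 0.10 (edgeR adjusted p = 1.94e-08) and 1.22 ± 0.10 (edgeR adjusted p = 2.2e-08) differed little between lines. NDUFV3, an accessory subunit beside NDUFV1, rose by 1.12 ± 0.11 in N40 (edgeR adjusted p = 3.18e-07), from 46.4, 56.3 and 51 CPM to 99.5, 116.3 and 118.1 CPM, and was called higher in DSY-c2 as well. NDUFS7, which carries the last iron-sulfur cluster before quinone, was higher in naive libraries of both lines.

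Of the other core subunits, NDUFS3, in the quinone-side module, was at 126.5, 129.8 and 124.6 CPM in DSY-c2 primed and 229.5, 246.1 and 273.4 CPM in naive libraries, and rose by 0.98 ± 0.08 there and by 0.81 ± 0.08 in N40. NDUFS8 and NDUFV2 had increases of 0.94 and 0.66 in DSY-c2 and of 0.54 and 0.39 in N40. NDUFS1 had the smallest of the core, 0.48 ± 0.07 and 0.20 ± 0.07, from 296.9, 267.9 and 302.3 to 411.2, 396.6 and 400.9 CPM in DSY-c2. The core subunits therefore ranged from 0.48 to 1.38 in DSY-c2 and from 0.20 to 0.95 in N40.

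Accessory subunits of the distal membrane arm ranged as widely. NDUFB2 was at 28.2, 26.7 and 27.3 CPM in DSY-c2 primed and 57.9, 56.7 and 76.1 CPM in naive libraries, an increase of 1.21 ± 0.14, with 0.89 ± 0.14 in N40. NDUFB1 and NDUFB3 had 1.02 ± 0.12 and 0.98 ± 0.09 in DSY-c2 and 0.77 ± 0.12 and 0.95 ± 0.09 in N40. NDUFB5, NDUFB8, NDUFB9, NDUFB11 and NDUFB6 lay between 0.58 and 0.89 in DSY-c2 and between 0.25 and 0.96 in N40. Closer to the quinone site, NDUFA9 had nearly the same increase in both lines, 0.62 ± 0.07 and 0.63 ± 0.07. NDUFA10 and NDUFAB1, the latter also the mitochondrial acyl carrier protein, had 1.06 ± 0.08 and 0.81 ± 0.08 in DSY-c2 against 0.71 ± 0.08 and 0.44 ± 0.08 in N40.

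At the other end, 3 complex I subunits were not called in N40. NDUFS4, an accessory subunit needed for late assembly, was at 54.2, 50.3 and 51.9 CPM in DSY-c2 primed and 79.2, 77.9 and 93.8 CPM in naive libraries, but at 68.7, 61.1 and 60.4 CPM against 65.4, 76.6 and 70.4 CPM in N40. The N40 libraries overlapped, with a change of 0.16 ± 0.09 (edgeR adjusted p = 0.139). NDUFA11, a membrane arm subunit, changed by 0.38 ± 0.08 in DSY-c2 (edgeR adjusted p = 0.00117) and by -0.04 ± 0.08 in N40 (edgeR adjusted p = 0.679), where its libraries overlapped too. NDUFB7, on the intermembrane face of the distal arm, was called in DSY-c2 by a narrow margin, at 0.18 ± 0.07 (edgeR adjusted p = 0.0375). That call was lost under DESeq2 (0.12, adjusted p = 0.113) and under most other settings. In N40 NDUFB7 changed by 0.05 ± 0.07 (edgeR adjusted p = 0.571), and the sign turned under both other scalings.

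The 6 assembly factors of complex I build the enzyme without staying in it. In DSY-c2, 5 were higher and 1 lower, with a median of 0.67, and in N40, 5 were higher and 1 was not called, with a median of 0.60. NDUFAF1, which acts in the assembly of the membrane arm, was at 38, 42.7 and 36.8 CPM in DSY-c2 primed and 85.2, 86.9 and 78.8 CPM in naive libraries. In N40 it was at 40.7, 46.3 and 41.6 CPM against 103, 93.2 and 86.5 CPM. It more than doubled in both lines, by 1.10 ± 0.11 (edgeR adjusted p = 3.31e-07) and 1.14 ± 0.11 log2 units (edgeR adjusted p = 1.68e-07). NDUFAF6, an early assembly factor with levels under 8 CPM in ESCs, rose by 0.90 ± 0.19 (edgeR adjusted p = 0.00075) and 0.91 ± 0.19 (edgeR adjusted p = 0.000621).

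NDUFAF5, which hydroxylates an arginine of NDUFS7, was at 16.2, 15.8 and 17 CPM against 24.9, 24.9 and 22.6 CPM in DSY-c2 and at 14.1, 14.6 and 13.1 CPM against 24.7, 24.1 and 24.8 CPM in N40, with increases of 0.56 ± 0.10 and 0.82 ± 0.10. NDUFAF4, of the quinone module, had 0.77 ± 0.10 and 0.30 ± 0.10.

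NDUFAF7, an arginine methyltransferase of early assembly, was the exception. Its levels were 24.2, 22.8 and 23.2 CPM in DSY-c2 primed and 18.9, 18.8 and 21.6 CPM in naive libraries. In N40 they were 23.5, 19.5 and 21.8 CPM in primed and 30.7, 26 and 27.6 CPM in naive libraries. The naive libraries were thus all lower in one line and all higher in the other, by -0.24 ± 0.10 (edgeR adjusted p = 0.0475) and 0.38 ± 0.10 (edgeR adjusted p = 0.00391). Each of these calls was lost under some settings (adjusted p = 0.0612 and 0.0903 when the 2 groups were fitted alone). NDUFAF3, a factor of the quinone module, was at 26, 21.4 and 24.8 CPM against 33.3, 32.5 and 33.1 CPM in DSY-c2, an increase of 0.45 ± 0.10 (edgeR adjusted p = 0.00104). In N40 its libraries overlapped, at -0.16 ± 0.10 (edgeR adjusted p = 0.183). NDUFAF3 was called lower in N40 with DESeq2 (-0.24, adjusted p = 0.0301), without scaling (-0.25, edgeR adjusted p = 0.0478) and without primed replicate 3 (-0.30, edgeR adjusted p = 0.0343).

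Complex III had the largest median in DSY-c2, 1.18 log2 units with 4 of 4 genes higher, and 0.64 with 3 of 4 in N40. UQCRFS1, the Rieske iron-sulfur protein that takes electrons from quinol, had the largest increase of the 44 genes in both lines. It was at 96.8, 89.2 and 92.9 CPM in DSY-c2 primed and 282.5, 284.4 and 300.0 CPM in naive libraries, and at 100.5, 99.7 and 101.4 CPM against 277.1, 243.7 and 255.9 CPM in N40. These are changes of 1.64 ± 0.07 (3.11-fold, edgeR adjusted p = 8.06e-11) and 1.36 ± 0.07 (2.58-fold, edgeR adjusted p = 1.39e-10), with a wide gap between primed and naive libraries.

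UQCRC1, a core structural subunit, was at 241.8, 246.4 and 237 CPM in DSY-c2 primed and 558.2, 575.7 and 635 CPM in naive libraries. In N40 it was at 258.4, 253.5 and 264.1 CPM against 408.1, 394.9 and 446.8 CPM. The primed DSY-c2 libraries were all below the primed N40 ones, and the naive DSY-c2 libraries all exceeded the naive N40 ones, with changes of 1.29 ± 0.06 (edgeR adjusted p = 3.7e-10) and 0.69 ± 0.06 (edgeR adjusted p = 1.34e-07). CYC1, cytochrome c1, rose by 1.07 ± 0.09 and 0.60 ± 0.08. UQCRB, a small subunit near the quinone site, was at 70.9, 73.7 and 71.1 CPM against 115.4, 109.5 and 140.4 CPM in DSY-c2. In N40 it was at 63.5, 63.9 and 57.1 CPM against 77.3, 66.8 and 63.9 CPM, a change of 0.17 ± 0.09 that was not called (edgeR adjusted p = 0.12).

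Complex IV was represented by 2 genes of ordinary tissue and 2 muscle isoforms, and partner isoforms such as COX6A1 and COX7A2 were not analysed here. COX5B, a nuclear subunit of the enzyme, was at 103.7, 80.4 and 92.2 CPM in DSY-c2 primed and 200.4, 183.7 and 239.7 CPM in naive libraries. In N40 it was at 99.4, 95 and 84.3 CPM against 170.4, 185.2 and 190.0 CPM, so that no naive library reached down to a primed one. The changes were 1.18 ± 0.11 (edgeR adjusted p = 1.49e-07) and 0.97 ± 0.11 (edgeR adjusted p = 9.07e-07). COX4I1, the broadly expressed isoform of subunit 4, was at 208.6, 208.1 and 208.9 CPM against 378.4, 387.4 and 395.6 CPM in DSY-c2 and at 211.2, 213.2 and 200.6 CPM against 280.0, 264.8 and 284.5 CPM in N40. Its increases were 0.89 ± 0.06 (edgeR adjusted p = 5.27e-09) and 0.41 ± 0.06 (edgeR adjusted p = 1.69e-05).

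COX6A2 and COX7A1, the isoforms known from heart and skeletal muscle, were called in neither line. COX6A2 was low, with 7 to 96 counts per ESC library. It was at 0.622, 0.800 and 0.705 CPM in DSY-c2 primed and 0.336, 0.150 and 0.425 CPM in naive libraries. Its changes were -1.21 ± 0.53 (edgeR adjusted p = 0.0574) and -0.84 ± 0.50 (edgeR adjusted p = 0.161). Under DESeq2 and 7 other settings the DSY-c2 change of COX6A2 passed the threshold. COX7A1 was at 8.22, 6.97 and 9.03 CPM in DSY-c2 primed and 12.9, 6.49 and 14.7 CPM in naive libraries, which overlapped. In N40 it was at 13.3, 13.8 and 11.9 CPM against 6.98, 10.3 and 10.3 CPM, which did not. The changes were 0.49 ± 0.24 (edgeR adjusted p = 0.0867) and -0.50 ± 0.24 (edgeR adjusted p = 0.0763). COX7A1 was called lower in N40 with DESeq2 (-0.58, adjusted p = 0.0275) and under 5 other settings, at -0.58 to -0.70. It was called higher in DSY-c2 without naive replicate 2 (0.74, edgeR adjusted p = 0.00399).

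All 7 ATP synthase genes were higher in both lines, with medians of 0.66 in DSY-c2 and 0.43 in N40. ATP5PF, coupling factor 6 of the peripheral stalk, was at 102.3, 81.9 and 93.3 CPM against 206.2, 182.6 and 221.1 CPM in DSY-c2 and at 91.4, 88.8 and 84.1 CPM against 176.1, 167.2 and 174.3 CPM in N40. It had the largest change of the enzyme in both, at 1.14 ± 0.09 (edgeR adjusted p = 2.68e-08) and 0.97 ± 0.09 (edgeR adjusted p = 1.06e-07). ATP5MC3, which encodes a subunit of the rotating c ring, rose from 259.2, 250.6 and 270.3 to 526.3, 519.1 and 561.5 CPM in DSY-c2, and from 235.9, 262 and 247.4 to 471.3, 394.9 and 444.9 CPM in N40. These were increases of 1.04 ± 0.08 (edgeR adjusted p = 3.77e-08) and 0.81 ± 0.08 (edgeR adjusted p = 3.95e-07). ATP5A1, the catalytic-head alpha subunit, had the smallest change of the 7 in DSY-c2, 0.53 ± 0.06, and rose by 0.26 ± 0.06 in N40. The gamma subunit ATP5F1C and the stalk subunits ATP5PB and ATP5H lay between 0.54 and 0.66 in DSY-c2 and between 0.21 and 0.43 in N40. ATP5PB, subunit b, was at 145.3, 158.6 and 155.7 CPM in DSY-c2 primed and 242.6, 236.7 and 247.3 CPM in naive libraries, without overlap.

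**Figure D3:**
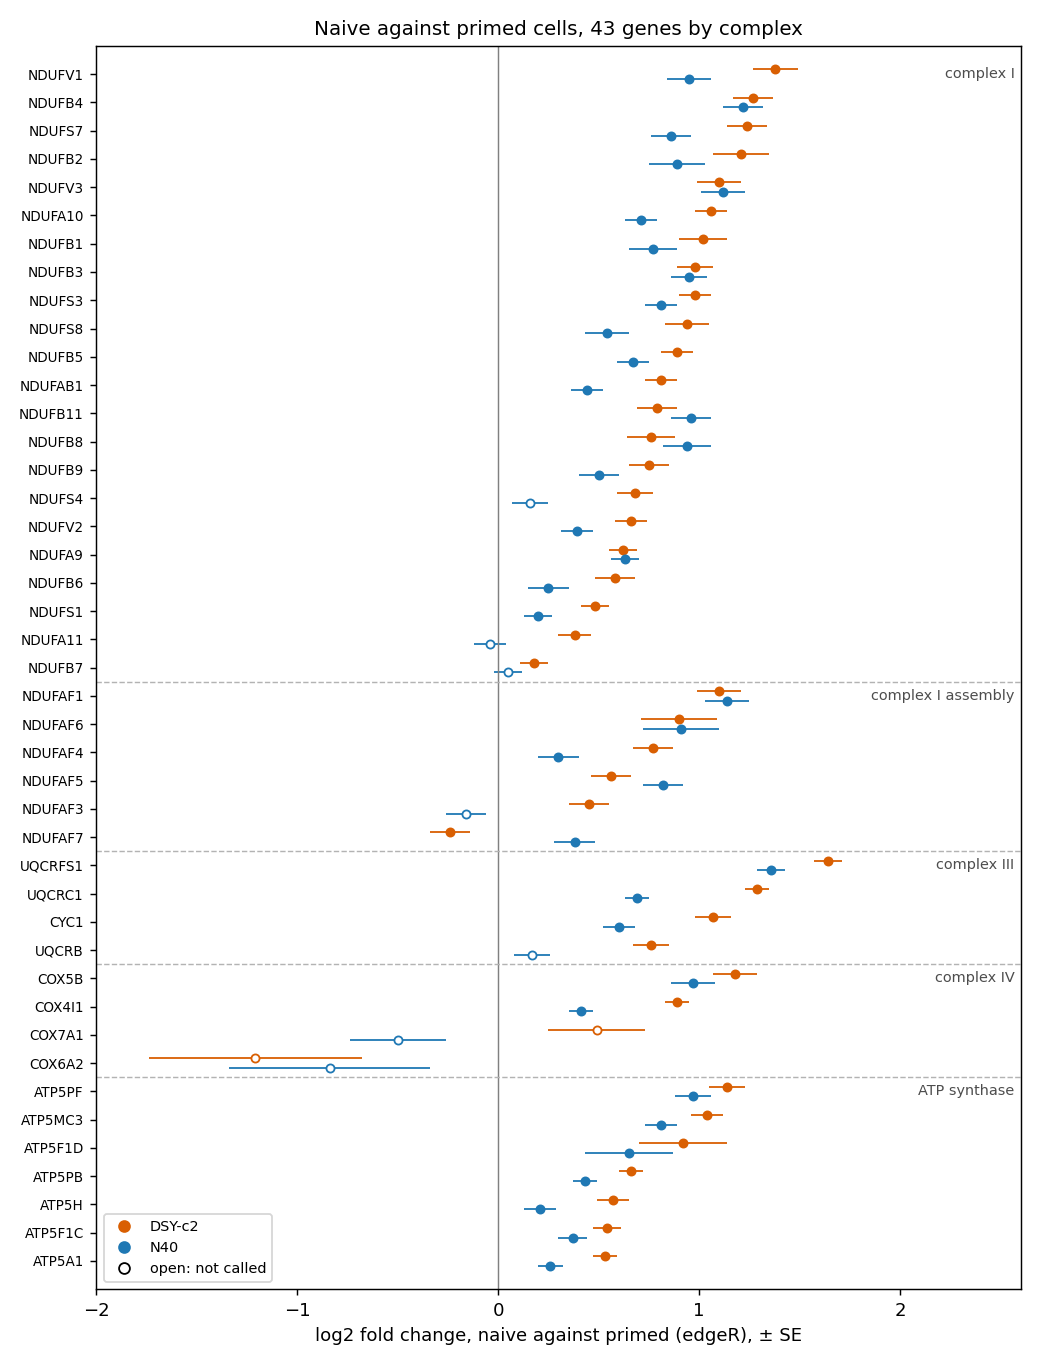
Log2 fold change of naive against primed cells (x axis, ± SE) for 43 of the 44 genes (y axis, by complex and sorted by the DSY-c2 value), in DSY-c2 (orange) and N40 (blue), with open circles where the test was not passed. UQCRFS1 is farthest to the right in both lines, and most DSY-c2 points lie to the right of their N40 partners.

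The difference between the naive effects of the 2 lines was tested directly. It was positive, meaning a larger increase in DSY-c2, for 11 of the 44 genes and negative for 1, where 6.55% of all genes were called positive and 8.57% negative. The median difference was 0.27 log2 units, against -0.05 over all genes. The positive genes were NDUFS4, NDUFA10, NDUFA11 and NDUFAB1 of complex I, the assembly factors NDUFAF3 and NDUFAF4, UQCRC1, UQCRB and CYC1 of complex III, COX4I1 and ATP5H. UQCRC1 had 0.60 ± 0.09 (edgeR adjusted p = 0.000538) and COX4I1 0.48 ± 0.08 (edgeR adjusted p = 0.00139). NDUFAF7 was the negative one, at -0.62 ± 0.14 (edgeR adjusted p = 0.00856). The 7 core subunits of complex I had differences between 0.17 and 0.43 that did not pass, with edgeR adjusted p from 0.0584 (NDUFS1) to 0.363 (NDUFS3). The number of positive genes was sensitive to the settings. With DESeq2 it was 17, where 9.56% of all genes were called positive and 11.2% negative. It was 6 without scaling and 6 to 19 with 1 library left out. The count was 6 without N40 primed replicate 2 or N40 naive replicate 3. It was 18, 19 and 17 without DSY-c2 naive replicate 1, DSY-c2 naive replicate 2 and N40 naive replicate 1. Shares of all genes under these last settings are not given here. Line and TgON or TgOFF cannot be told apart in this difference.

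The column headers give each library a pair of run labels, and these were not spread evenly over the ESC groups. All DSY-c2 primed libraries, DSY-c2 naive replicates 1 and 2 and No.40 replicate 1 had L6 and L7, while all other ESC libraries and all embryo libraries had L1 and L2. What the labels stand for is not stated. The N40 naive comparison therefore lay within L1 and L2. For DSY-c2, leaving out naive replicate 3 kept the comparison within L6 and L7, and 41 genes were then higher and 2 lower, with 26.1% and 27% of all genes. In that setting the line difference, which then set a change within one label pair against a change within the other, had 15 positive genes and 1 negative, with 8.03% and 6.27% of all genes. With the label as a term in the fit of all ESC libraries, chosen after seeing the data, it had 9 positive genes and 1 negative, with 6.35% and 7.97% of all genes, and NDUFAF4 lost its call (0.41, edgeR adjusted p = 0.0625).

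Other lists moved with the naive state, and their part in these results was not tested. The shares of all genes called were 29.6% higher and 29.3% lower in DSY-c2, and 32.3% and 28.7% in N40. Of 46 cytosolic ribosomal protein genes, 44 were called higher in DSY-c2 (median 0.47) and 23 in N40 (0.22), and of 50 mitochondrial ribosomal protein genes 45 (0.60) and 41 (0.53). Gene span, the length of genomic sequence from the first to the last exon, had a median of 9.6 kb among the 42 members with a RefSeq span, against 38.4 kb over all genes. With genes put in 10 bins of equal size by span and the median of all genes in a member's bin subtracted, their medians went from 0.85 to 0.79 in DSY-c2 and from 0.64 to 0.55 in N40. Markers of other cell types also differed. Fibroblast markers (5 of 7 matched: COL1A1, COL1A2, COL3A1, DCN, POSTN) summed to 300.0 to 387.6 CPM in DSY-c2 primed and 75.4 to 209.8 CPM in naive libraries, and to 501 to 776.1 and 202.7 to 503.3 CPM in N40. Primitive endoderm markers (7 of 8 matched) summed to 826 to 2058 CPM in primed and 398.1 to 617.2 CPM in naive DSY-c2 libraries, and to 1127 to 1267 and 194.1 to 271.6 CPM in N40. The sums follow the most abundant genes: of the 5 fibroblast markers, 1 was called higher and 2 lower in DSY-c2, and 3 higher and 1 lower in N40. For the primitive endoderm, mesoderm and maternal tissue lists only sums are given, which do not show if their genes moved together. Neural markers (3 of 4 matched: NCAM1, PAX6, TUBB3) summed to 215.1 to 298.4 CPM in primed and 67.45 to 118.4 CPM in naive DSY-c2 libraries, and to 233.9 to 276.5 and 110.5 to 148.3 CPM in N40, with 2 of 3 called lower in each line. Trophectoderm markers (6 of 8 matched) summed to 74.31 to 128.8 CPM in primed and 17.97 to 198.5 CPM in naive DSY-c2 libraries, and to 9.319 to 13.63 and 52.62 to 94.01 CPM in N40, with 2 of 6 called higher and 1 lower in DSY-c2 and 4 higher and 1 lower in N40. Mesoderm markers (5 of 5 matched) summed to 48.7 to 285.9 CPM in primed and 2.83 to 3.15 CPM in naive DSY-c2 libraries, and to 6.5 to 11.5 and 2.67 to 4.69 CPM in N40. PECAM1, PGR and PTPRC, listed as genes of maternal tissue, summed to 143.5 to 315.2 CPM in primed and 1039 to 1169 CPM in naive DSY-c2 libraries, and to 159.7 to 232.3 and 1335 to 1405 CPM in N40.

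Between primed lines the 44 genes moved little, except in N40. DSY-c2 primed Tg cells had 1 gene higher than DSY127, where 0.156% of all genes were called higher and 1.72% lower. That was COX4I1, at 0.30 ± 0.06 (edgeR adjusted p = 0.013), with 165.5, 167.8 and 176.3 CPM in DSY127 against 208.6, 208.1 and 208.9 CPM. All DSY-c2 primed libraries carry the run labels L6 and L7 and all DSY127 libraries L1 and L2, so line and label cannot be told apart within these 2 groups. With the label as a term, estimated from DSY-c2 naive and No.40 libraries, COX4I1 had 0.26 (edgeR adjusted p = 0.228). DSY127 had 2 genes higher than No.40, with 2.65% of all genes called higher and 1.82% lower. These were NDUFA9 at 0.27 ± 0.07 (edgeR adjusted p = 0.0245) and NDUFA10 at 0.29 ± 0.08 (edgeR adjusted p = 0.0462), both accessory subunits of complex I, and with any 1 library of either group left out the count was 0. With the run label as a term, NDUFA10 lost its call (0.23, edgeR adjusted p = 0.065).

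N40 primed Tg cells had 16 genes higher than No.40 and 0 lower, with 8.3% of all genes called higher, 13.6% called lower and a median of 0.20. Complex I supplied 12 of them. DESeq2 called 23 higher and 0 lower, with 11.7% of all genes higher and 15.3% lower. At an unadjusted p under 0.05 by edgeR, 23 genes passed in either direction, with 34.2% over all genes. Leaving out No.40 replicate 2 or 3 raised the count to 29 or 26, for which the share of all genes called is not given here. Within the run labels L1 and L2, which leaves out No.40 replicate 1, it was 20, with 8.3% of all genes called higher and 7.22% lower. ATP5F1D, the delta subunit in the central stalk of ATP synthase, stood out. Its levels were 7.96, 7.12 and 10.6 CPM in No.40, 7.53, 6.74 and 5.32 CPM in DSY127 and 11.7, 12.7 and 6.51 CPM in DSY-c2 primed cells, but 30.7, 35 and 34 CPM in N40 primed cells. The difference to No.40 was 1.96 ± 0.23 (3.88-fold, edgeR adjusted p = 5.91e-05). Naive cells had more again, at 15.7, 22.7 and 20.1 CPM in DSY-c2 (0.92 ± 0.22, edgeR adjusted p = 0.00219) and 56.3, 44 and 56.3 CPM in N40 (0.65 ± 0.22, edgeR adjusted p = 0.0179). NDUFA11 was next, at 0.56 ± 0.08 (edgeR adjusted p = 0.00037), from 39.7, 45.2 and 46 CPM to 62.1, 67.7 and 62.9 CPM. The same N40 primed libraries are the control of the N40 naive comparison. Beside these calls, 32 of 46 cytosolic and 37 of 50 mitochondrial ribosomal protein genes were higher, and the fibroblast markers summed to 501 to 776.1 CPM in N40 primed against 1133 to 2210 CPM in No.40 (4 of 5 called lower). Their part in the result was not tested.

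In the embryo, 37 of the 44 genes differed over the 7 stages by edgeR's F test, with 38% over all genes, and NDUFS1, NDUFS4, NDUFAF5, NDUFAF6, NDUFAF7, COX6A2 and COX7A1 did not pass. With any 1 library left out the count ran from 27 to 38. Between morula and early blastocyst ICM, 5 genes rose and 0 fell, with 3.89% of all genes called higher and 2.27% lower. UQCRC1 was at 280.2, 266 and 426.3 CPM in the morula and 793.3, 1054 and 731.9 CPM in the early ICM, a change of 1.41 ± 0.30 (edgeR adjusted p = 0.0102). NDUFV1 went from 39.4, 51.1 and 70.0 CPM to 208.7, 136.4 and 151 CPM, or 1.63 ± 0.36 (edgeR adjusted p = 0.0125). The other 3 belonged to ATP synthase: ATP5PB (1.11 ± 0.28), ATP5F1C (0.93 ± 0.25) and ATP5A1 (0.79 ± 0.22), with edgeR adjusted p = 0.0238, 0.0344 and 0.0417. This count was fragile: it was 0 without morula replicate 1, 1 and 2 without morula replicates 2 and 3, and 3 without early ICM replicate 1 or 3. It was also 0 when only these 2 stages were fitted. Shares of all genes called in these fits are not given here, so a loss in the 44 cannot be told from one over all genes. DESeq2 called 11 higher and 2 lower, with 7.85% of all genes higher and 8.47% lower. At an unadjusted p under 0.05, 19 of the 44 passed in either direction, with 23.7% over all genes.

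The assembly factor NDUFAF1 was at 216.7, 143.4 and 112.1 CPM in the morula, against 47.8 to 150.4 CPM over the ICM stages, while the stalk subunit ATP5PF was at 11.4, 16.5 and 5.93 CPM against 16.7 to 63.4 CPM. Neither was called by edgeR between morula and early ICM. DESeq2 called NDUFAF1 lower in the early ICM (-1.21, adjusted p = 0.0183) and ATP5PF higher (1.54, adjusted p = 0.0114).

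Across the ICM stages no gene passed the test. In blastocyst against early blastocyst ICM edgeR called 0 of the 44, with 0.0295% of all genes called higher and 0% lower. There 1 gene passed an unadjusted p under 0.05 by edgeR, as did 13.3% of all genes. DESeq2 called 0 of the 44, with 4.55% of all genes higher and 1.88% lower. In the steps to expanded, hatching and hatched ICM edgeR called 0, with 0% of all genes. DESeq2 also called 0, where it called 1.08%, 0.963% and 1.04% of all genes higher and 0.827%, 0.543% and 0.295% lower. At an unadjusted p under 0.05, 0 of the 44 passed in each of these steps, where 5.45%, 4.91% and 6.7% of all genes did. Spread between libraries of a stage was wide here, as in blastocyst ICM, where the summed level was 10260 ± 2456 CPM, so small changes were not detectable.

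The largest differences were between the ICM and the postimplantation epiblast. Against the mean of 5 ICM stages, 38 of 44 genes were lower in the epiblast and 0 were higher, with 18.7% of all genes called lower and 26.1% higher. The median was -2.18 log2 units, against 0.20 over all genes, and 37 were at least 2-fold lower. The scaling of DESeq2 moved the median of all genes to 0.437 and that of the 44 to -1.94, with 38 still called lower. At an unadjusted p under 0.05, 39 passed in either direction, with 52% over all genes, and DESeq2 called 38 lower and 0 higher, with 19.6% of all genes lower and 25.7% higher. With any 1 library left out, 36 to 39 were lower, and without hatched ICM replicate 1, 2 or 3 it was 38 each time. Against the hatched ICM alone, 36 were lower, with 12.7% of all genes called lower and 7.22% higher. NDUFB3 and NDUFB9, both of the distal membrane arm, had the largest changes there, -3.76 ± 0.47 (edgeR adjusted p = 4.37e-05) and -3.36 ± 0.52 (edgeR adjusted p = 0.000216). The 3 epiblast libraries lay below all 15 ICM libraries for 37 of 44 genes, where 13.2% of all genes did so.

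For complex I, 22 of 23 subunits were lower, with a median of -2.39, and the accessory subunits (16 of 16, median -2.74) fell further than the core ones (6 of 7, median -2.25); this order was not tested. NDUFS7 was at 18.8, 13.9 and 15.8 CPM in the epiblast and between 78.8 and 322.6 CPM in the ICM (median 131.3). It fell by 3.38 ± 0.48 on the log2 scale (edgeR adjusted p = 4.33e-05). NDUFB3, in the distal membrane arm, was at 2, 2.92 and 3.44 CPM against 14.5 to 59.2 CPM (median 26), and fell by 3.30 ± 0.42 (edgeR adjusted p = 1.42e-05). Both genes had all epiblast libraries far under the lowest ICM library. NDUFB1, a small subunit of the same arm, was at 1.2, 0.584 and 0.603 CPM against 2.2 to 12.9 CPM in the ICM, while all ESC libraries held at least 31.99 CPM on the common scale.

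NDUFS1 was the one complex I subunit that was not called. It was at 328.9, 325.7 and 293.4 CPM in the epiblast, inside the ICM range of 179.5 to 519.5 CPM, and changed by -0.12 ± 0.25 (edgeR adjusted p = 0.731). It was singled out after its values were seen. Among assembly factors, NDUFAF1 was at 10.4, 10.7 and 10.3 CPM against 47.8 to 150.4 CPM, and fell by 3.11 ± 0.36 (edgeR adjusted p = 6.74e-06). NDUFAF3 fell by 2.69 ± 0.49 (edgeR adjusted p = 0.00033) and NDUFAF4 was also called lower. NDUFAF5, NDUFAF6 and NDUFAF7 were not called, and their epiblast libraries overlapped those of the ICM.

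All 4 complex III genes were lower, with a median of -2.62. CYC1 was at 79.2, 79 and 72.2 CPM against 302.2 to 843.2 CPM, and UQCRB at 5.15, 4.46 and 2.87 CPM against 7.93 to 56.2 CPM. CYC1 fell by 2.80 ± 0.32 (edgeR adjusted p = 6.17e-06) and UQCRB by 2.70 ± 0.43 (edgeR adjusted p = 0.000108). UQCRFS1 was at 62.8, 62.8 and 56.9 CPM against 221.8 to 559.5 CPM. All 3 genes had epiblast libraries below every ICM library.

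In complex IV, COX5B was at 11.4, 12.2 and 8.21 CPM against 43.2 to 178.1 CPM and fell by 3.04 ± 0.39 (edgeR adjusted p = 1.79e-05). COX4I1 fell by 2.22 ± 0.34 (edgeR adjusted p = 6.88e-05), to 50, 57.6 and 61.7 CPM. The muscle isoforms gave no usable comparison. COX6A2 had no count in 9 of 21 embryo libraries and COX7A1 in 6 of 21, and COX7A1 reached at most 3.35 CPM in any embryo library, while ESC libraries held 5.99 to 14.7 CPM. The 7 ATP synthase genes were all lower, with a median of -2.13. ATP5F1D was at 34.6, 30.1 and 29.6 CPM against 154.9 to 610.4 CPM, and fell by 3.26 ± 0.38 (edgeR adjusted p = 6.96e-06). ATP5PF fell by 2.25 ± 0.44 (edgeR adjusted p = 0.000592) and ATP5MC3 by 2.14 ± 0.29 (edgeR adjusted p = 2.84e-05). ATP5A1 stood at 1052, 1029 and 1015 CPM against 1572 to 3036 CPM, and fell by 1.02 ± 0.18, the least of the 7.

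**Figure D4:**
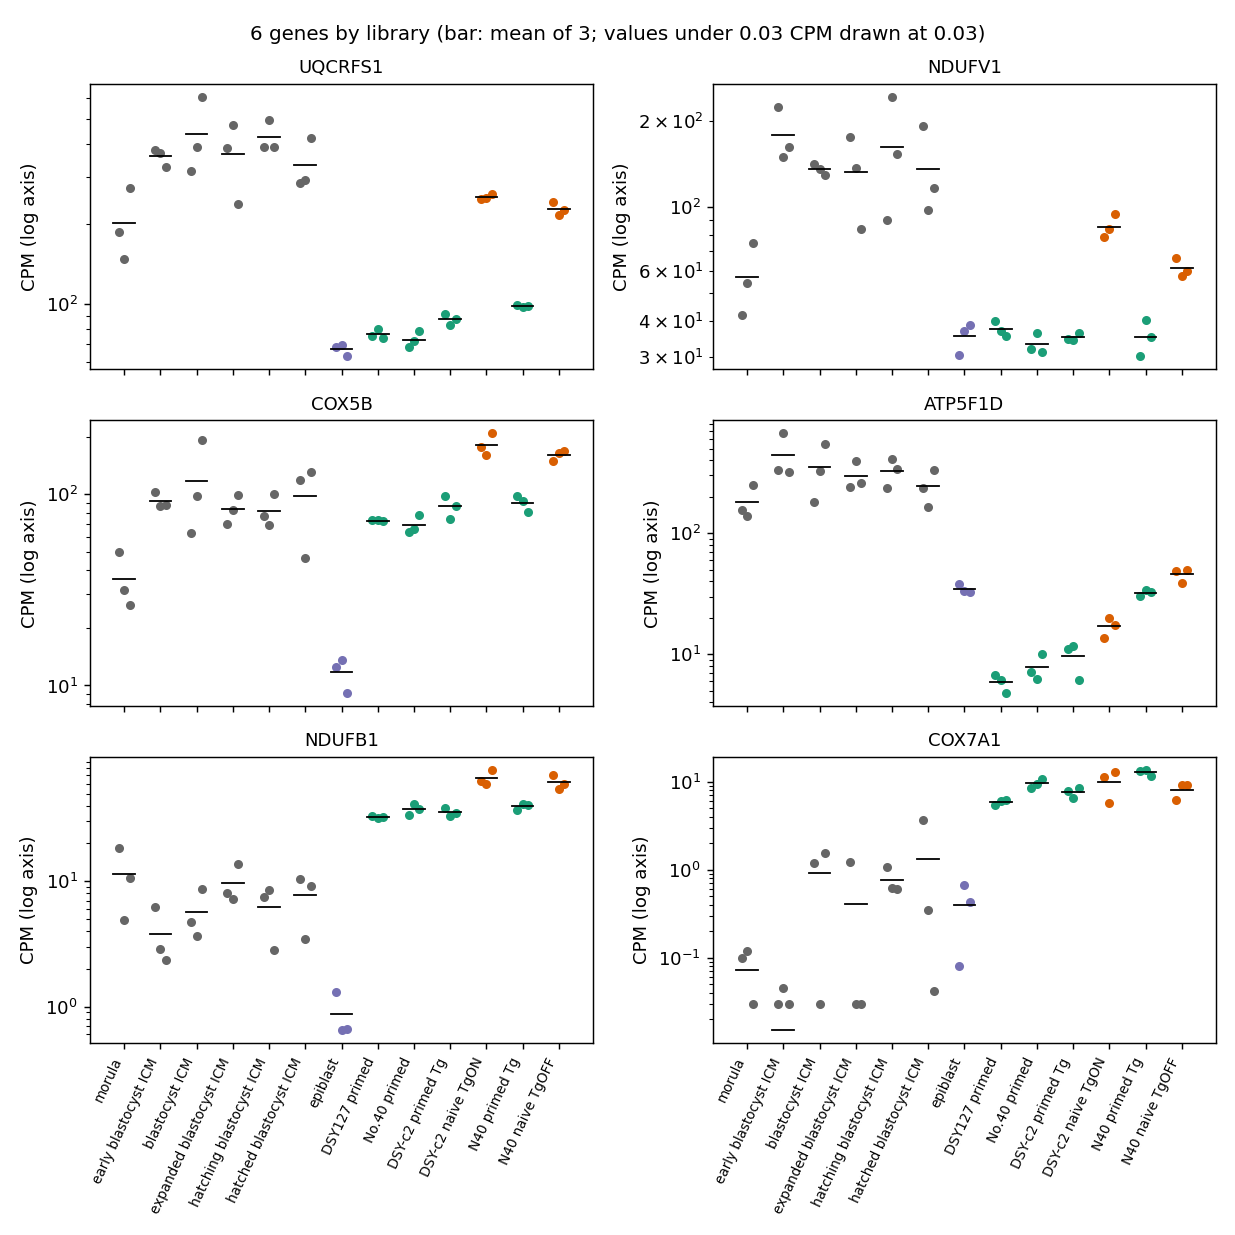
CPM on the scale common to 39 libraries (log axis) of UQCRFS1, NDUFV1, COX5B, ATP5F1D, NDUFB1 and COX7A1 in each library, by group, with bars for means of 3 and values under 0.03 CPM drawn at 0.03. UQCRFS1, NDUFV1 and COX5B are higher in naive (orange) than in primed libraries (green), ATP5F1D differs among the primed groups, and NDUFB1 and COX7A1 are higher in ESCs than in any embryo library.

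Other values moved with the epiblast result, where the shares of all genes called were 18.7% lower and 26.1% higher. Of 46 cytosolic ribosomal protein genes, 45 were lower (median -2.38), as were 47 of 50 mitochondrial ribosomal protein genes (-2.19) and 22 of 26 proteasome genes (-1.89). Among all genes the change rose with gene span, from a median of -0.68 in the bin with the shortest spans (median 4 kb) to 2.01 in that with the longest (322.5 kb). After the same subtraction of the bin's median, chosen after seeing the data, the members' median went from -2.23 to -2.06, and 40 of the 42 with a span lay below the median of their bin. Fibroblast markers summed to 1366 to 1534 CPM in the epiblast against at most 28.2 CPM in the ICM, where 2 or 3 of the 5 genes had no count in a stage. Mesoderm markers (EOMES, MESP1, MIXL1, SNAI2, TBXT) summed to 96.4 to 101.9 CPM against at most 10.2 CPM, and pluripotency genes to 1162 to 1233 CPM against stage medians of 1869 to 3103 CPM (libraries from 601.6 to 4897 CPM). The amnion markers GABRP and VTCN1 (2 of 4 matched) summed to 12.16 to 17.32 CPM in the epiblast against at most 0.0824 CPM in the ICM. Trophectoderm markers summed to 72.12 to 86 CPM in the epiblast against 5.75 to 1357 CPM in the ICM. Primitive endoderm (2179 to 2405 CPM), neural (167.1 to 177.8 CPM) and maternal tissue markers (255.6 to 260.5 CPM) overlapped the ICM. Their ICM libraries ran from 717.5 to 6153, 65.46 to 411 and 119.9 to 475.6 CPM. On the ESC scale, fibroblast markers summed to 928.5 to 2325 CPM in DSY127 and 1133 to 2210 CPM in No.40. DSY-c2 and N40 primed cells had less, with 300.0 to 387.6 and 501 to 776.1 CPM. Whether other cell types or gene span had a part in the result was not tested.

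**Figure D5:**
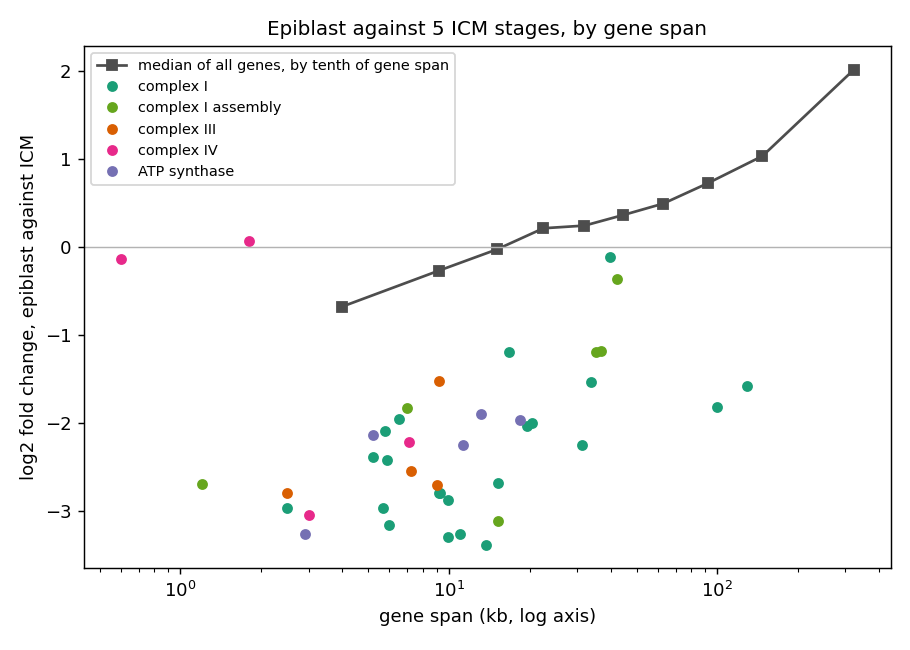
Log2 fold change of epiblast against 5 ICM stages (y axis) by gene span in kb (x axis, log scale) for 41 members coloured by complex, with squares joined by a line for the median of all genes in each of 10 bins of span. The line rises from -0.68 to 2.01, and most members lie below it.

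Set beside primed ESCs on the common scale, the epiblast was lower still. All 3 epiblast libraries lay below all 12 primed libraries for 31 of the 44 genes and above for NDUFV3, UQCRC1 and ATP5A1, where 23.9% of all genes lay below and 24.9% above. ESCs and embryos were not tested against each other.

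The rest of the pathway was read from lists of related genes. Beside their counts stand the shares of all genes called: 29.6% higher and 29.3% lower in DSY-c2 naive cells, and 32.3% and 28.7% in N40. In the epiblast against the ICM, 26.1% of all genes were called higher and 18.7% lower. Complex II, the other entry for electrons, had 6 of 8 genes matched: 5 were higher in DSY-c2 naive cells, 4 were higher and 1 lower in N40, and all 6 were lower in the epiblast. SDHB, its iron-sulfur subunit, was at 96.6, 77.3 and 85.5 CPM in DSY-c2 primed and 350.8, 345.8 and 449.5 CPM in naive libraries, and at 73.8, 64.7 and 63.6 CPM against 358.3, 388.5 and 361.9 CPM in N40. Its increases of 2.14 ± 0.11 (edgeR adjusted p = 4.55e-10) and 2.46 ± 0.11 (edgeR adjusted p = 9.6e-11) exceeded those of all 44 members. Electron carriers and quinone synthesis had 11 genes higher and 1 lower of 14 in DSY-c2, 9 and 3 in N40, and 9 lower in the epiblast. ETFB, which passes electrons from fatty acid oxidation, rose by 1.59 ± 0.10 and 1.53 ± 0.10.

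Assembly factors outside the rule had 19 higher and 1 lower of 26 in DSY-c2, 16 and 3 in N40, and 19 lower in the epiblast. TMEM70, an assembly factor of ATP synthase, was at 25.3, 18.1 and 24 CPM against 55.1, 54.5 and 69.2 CPM in DSY-c2 and rose by 1.41 ± 0.13 there and by 1.53 ± 0.13 in N40. The TCA cycle and pyruvate entry, which supply NADH and succinate, had 16 higher and 1 lower of 20 in DSY-c2, 16 and 4 in N40, and 9 lower and 3 higher in the epiblast. SUCLA2, a subunit of succinyl-CoA synthetase, rose by 2.42 ± 0.11 and 2.13 ± 0.11, while IDH2, mitochondrial isocitrate dehydrogenase, changed the other way, by -1.33 ± 0.14 and -2.18 ± 0.14. MPC1, the mitochondrial pyruvate carrier, rose by 2.11 and 2.69. Regulators of mitochondrial biogenesis had 7 higher and 4 lower of 14 in DSY-c2 and 8 and 3 in N40. With 29.3% and 28.7% of all genes called lower in these comparisons, their lower calls are given as a description. Among these regulators ESRRB, a nuclear receptor of naive cells, rose by 6.33 ± 0.36 and 5.74 ± 0.35. The coactivator PPARGC1A changed by -2.74 ± 0.51 and -2.38 ± 0.50. Of the 13 protein genes of the mitochondrial genome 0 were matched, so the subunits it encodes were not analysed here.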

How the data were processed

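Poly(A)+ RNA was extracted with RNeasy Mini columns and made into stranded TruSeq libraries, per the labels' protocols. Per the submitters' processing notes, the authors used Trim Galore 0.4.0, STAR 2.5.3a and featureCounts 1.5.2, and they deposited whole-number read counts per gene. For the genome build and gene annotation, the entry is: not given in the sources used here. Each library had 2 run columns, headed L1 and L2 or L6 and L7, which were summed; runs of a library differed far less (chi-square per gene 1.91 to 2) than libraries of a group (28.1 or more). Low counts were more often even than odd (64.1% of values from 1 to 49, against 50.7% from 500 up), so mates may have been counted separately; halved counts were an alternative. In the table, 6 columns that match no sample used here were left out.

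ESC (18 libraries) and embryo (21 libraries) counts were fitted separately with edgeR 4.0.16 in R 4.3.3 (limma 3.58.1): filterByExpr, TMM scaling, robust quasi-likelihood tests, and Benjamini-Hochberg adjustment over all genes tested, with a threshold of 0.05. The scripts were tested on simulated data. CPM used the TMM factors of each fit. Levels over all 13 groups used TMM factors of 39 libraries, and log2 CPM a prior count of 2. Alternatives were DESeq2 1.42.0 as test or as scaling, no scaling, other filters, halved counts, each library left out, fits of only the groups compared, a replicate block and, added after seeing the data, the run label as a term.

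The genes and lists were chosen with earlier results of these data known. Named genes were isoform-pair members; the 2 largest called rises and falls per complex in the naive comparisons, their difference and epiblast against ICM; the 2 largest of each kind in every other comparison; members not called in a naive comparison or called in opposite directions; up to 3 called genes of each other list, and SDHB. Genes named beyond this rule were chosen after their values were seen. Gene symbols were assigned by gene ID and spans were taken from RefSeq by symbol, where ATP5A1 and ATP5H found no match. No sequences or coordinates are given. Values of 1 gene are not reported here; it is counted in the totals and left out of the plots of single genes.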

Additional observations from a re-analysis of the deposited data

Results flagged for a closer look

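The change from primed to naive cells differed between DSY-c2 and N40 for 12 of the 44 genes by edgeR's test of the difference itself. Of all genes tested, 6.55% were called positive and 8.57% negative. The DSY-c2 change exceeded the N40 change, in log2 units, by 0.52 for NDUFS4, 0.35 for NDUFA10, 0.42 for NDUFA11 and 0.38 for NDUFAB1, all accessory subunits of complex I. For the assembly factors NDUFAF3 and NDUFAF4 the difference was 0.61 and 0.47. In complex III it was 0.60 for UQCRC1, 0.59 for UQCRB and 0.47 for CYC1. COX4I1 had 0.48 and ATP5H 0.36. The calls of NDUFA11, NDUFAF4 and ATP5H were lost without scaling (edgeR adjusted p = 0.0532, 0.0655 and 0.0848) and with some single libraries left out. NDUFAF7 was the only gene of the 12 with a negative difference, -0.62, and its naive libraries lay below the primed ones in DSY-c2 and above them in N40. Cell line and the TgON or TgOFF label cannot be told apart here. In the libraries used, the run labels of the columns also differ between the lines, apart from DSY-c2 naive replicate 3. Without that library the 44 genes had 15 positive differences and 1 negative, with 8.03% and 6.27% of all genes.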

How the results depend on the processing

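The epiblast result was the steadiest: 36 to 39 genes were lower than in the ICM with 1 library left out and 38 under each other alternative. The DSY-c2 naive count of higher genes stayed within 1.5 times of 41 throughout, while lower calls numbered 2 with DESeq2 as scaling or test, without scaling, with a 1 CPM filter or with halved counts, and 0 to 2 with 1 library left out. In N40, lower calls numbered 1 with DESeq2 scaling, without a low-count filter or in a fit of only the groups compared, 2 without scaling or with DESeq2, and 0 to 1 with 1 library left out. The line difference had 6 positive genes without scaling, 17 with DESeq2 and 6 to 19 with 1 library left out. DSY-c2 primed against DSY127 gave 1 to 2 higher, and N40 primed against No.40 14 to 29. DSY127 against No.40 gave 1 with DESeq2 scaling, 0 without a filter or with only the groups compared, and 0 with 1 library left out. DESeq2 gave 2 higher and 3 lower there, with 4.46% of all genes higher and 4.12% lower. Early ICM against morula gave 3 with DESeq2 scaling, without scaling or without a filter, 0 with only the groups compared, 11 higher and 2 lower with DESeq2, and 0 to 6 higher and 0 to 1 lower with 1 library left out. With the run label as a term, DSY-c2 lower calls numbered 2, DSY-c2 primed against DSY127 gave 0 and DSY127 against No.40 gave 1. The causes were not tested. Most counts in this section stand without the share of all genes called in the same setting, and that share moved too. With plain totals, summed levels were 3078 CPM in the epiblast, 4997 in DSY127, 4878 in No.40, 5255 in DSY-c2 primed, 8226 in DSY-c2 naive and 7326 in N40 naive cells, so that DSY-c2 naive cells passed the hatched ICM (8179).

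Of 56 called values of named genes, 0 reversed in 985 alternatives and 11 lost their call in at least 1. All 28 reversed values were of genes not called. NDUFB7 in N40 was -0.03 with DESeq2 as scaling or test, -0.05 without scaling, -0.06 without a filter, -0.05 with only the groups compared, and -0.08 to 0.04 with 1 library left out. With 1 library left out, UQCRB in N40 ranged from 0 (without naive replicate 1) to 0.23, NDUFS4 from -0.01 (without naive replicate 2) to 0.16, and the COX6A2 line difference from -0.62 to 0.02 (without DSY-c2 naive replicate 2). In epiblast against ICM, COX6A2 was 0.09 with DESeq2 as scaling or test and -0.41 to 1.67 with 1 library left out, and COX7A1 was -0.01 without a filter and -0.46 to 1.45 with 1 library left out; low counts limit both.

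No pairing by replicate number was seen: in no comparison checked did all 3 same-numbered pairs have deviations correlated over 0.1 (r from -0.45 to 0.24). With 3 libraries per group this check cannot show that samples were unpaired, and the DSY-c2 groups were not in it. A replicate block gave 30 higher in N40 naive cells, 6 in N40 primed against No.40, 0 in DSY127 against No.40, 4 in early ICM against morula and 38 lower in the epiblast, with -0.05 for NDUFB7 in N40 and 2.15 for COX6A2 in the epiblast. The DSY-c2 groups share too few numbers for a block.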
